A study of Homo sapiens with 6 samples.

Results

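ZFP57, its corepressor TRIM28 and 8 imprinted genes (PEG3, PEG10, IGF2, MEST, SNRPN, DLK1, PLAGL1 and GRB10) were followed in RNA bound by PTBP1. These 10 genes were taken by their names from a table of 20024 genes, where they fill 11 rows because IGF2 is listed under 2 gene identifiers. ZFP57 was singled out for its difference between the genotypes compared here, so its values are given as a description, and the other genes were named for their link to it. Reads were present for 8 of the 10 genes in at least 1 library, and 4 genes (ZFP57, TRIM28, PEG10 and GRB10) reached the mean of 1 FPKM over the 6 libraries that the test required. FPKM are fragments scaled to gene length and to the library total.

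The study compared AC16 cells, labelled as heart cardiomyocytes, of the genotypes DCRT-KO and WT, with 3 libraries each. DCRT is a long noncoding RNA that the study's title describes as a PTBP1 partner, and its aim concerned dilated cardiomyopathy. All 6 libraries came from RNA immunoprecipitation (RIP) with an antibody to PTBP1 and no other treatment is labelled. The labels do not say whether the libraries of a group came from separate cultures or how many clones the knockout holds, so p-values measure the spread between libraries, which may be technical. Whether the cells are the established line named AC16 was not checked here. DCRT has no row among the genes analysed here, so its loss was not checked either. No input RNA and no control-antibody library was analysed here, so the amount of an RNA in the cells, its binding by PTBP1 and RNA that came down without PTBP1 cannot be told apart.

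Genomic imprinting leaves 1 parental copy of a gene silent, through DNA methylation that is set in the egg or sperm at an imprinting control region. ZFP57 is a KRAB zinc finger protein that binds the methylated hexamer TGCCGC at such regions and brings in TRIM28 (KAP1), which in turn recruits the histone methyltransferase SETDB1 and DNA methyltransferases, so that the mark survives the reprogramming of the early embryo. PTBP1 binds pyrimidine-rich RNA, rich in C and U, and is best known as a regulator of splicing.

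Depth differed between the genotypes. The WT libraries held 2589080, 1798841 and 2062766 reads, and the DCRT-KO libraries held 528371, 373354 and 1380722 reads for replicates 1, 2 and 3. Every DCRT-KO library was shallower than every WT library, so depth and genotype cannot be told apart. Several defining markers of the labelled cell type had no reads. Of 16 cardiomyocyte markers, 8 had no read in any library, among them TNNT2, MYH6, MYH7, ACTN2, TNNI3 and NKX2-5, and the list summed to between 5.35 and 8.56 FPKM in WT and between 1.59 and 14.6 FPKM in DCRT-KO. The highest of these sums, in the shallowest library (DCRT-KO replicate 2), was mostly NPPB at 7.57 and NPPA at 4.78 FPKM, each from 2 reads, and TTN at 3.16 to 4.99 FPKM made up most of each WT sum. Of 12 pluripotent and germ cell markers, 5 were at 0 in all libraries, and the sums were 5.76 to 7.05 FPKM in WT and 3.55 to 6.67 in DCRT-KO. The trophoblast list summed to 26.0 to 30.5 FPKM in WT and 18.0 to 21.4 in DCRT-KO with 5 of 10 genes at 0, and the fibroblast list to 16.5 to 19.7 and 8.41 to 11.1 with 5 of 10 at 0. A mean of 1 FPKM was reached by 2 trophoblast and 1 fibroblast markers, beside 2 cardiomyocyte and 1 pluripotent or germ cell markers. Limma called none of these markers. By voom, limma's weighting for counts, the fibroblast marker PDGFRA (log2 difference -0.83, adjusted p 0.0120) and TTN (-0.82, 0.0229) were lower in DCRT-KO. Voom called 9.17% of all tested genes. The part of cell type in the results was not tested.

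Sequences that PTBP1 could meet in the 4 tested members are shown as the 30-base window richest in C and T of the longest protein-coding GENCODE 29 transcript of each gene (GRCh38, written as DNA in the direction of the transcript, with the longest unbroken run of C and T in the window in capitals). The ZFP57 window lies in coding sequence at chr6:29672934-29672963 on the minus strand. The TRIM28 window lies in the 3′ UTR at chr19:58550585-58550614 on the plus strand, the PEG10 window in the 5′ UTR at chr7:94663466-94663495 on the plus strand, and the GRB10 window in the 3′ UTR at chr7:50592536-50592565 on the minus strand.
ZFP57: TCTTCTgttgcccccattgttctttgactt
TRIM28: ctctgTTCTCTgtcctgtcaccccatcccc
PEG10: ctgcccaCCTCCTCCTCCTCCCCCTCCCCC
GRB10: atcacttttttgcaCTCCTTCTTTgttttc
The windows held 24, 25, 28 and 25 pyrimidines of 30 for ZFP57, TRIM28, PEG10 and GRB10, beside a median of 26 over 11424 tested genes with such a transcript.

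Of these 4 transcripts, that of ZFP57 had the lowest share of pyrimidines. Its 1980 bases were 46.7% C or T, and 13.2% of the tested genes had a lower share (median 49.5%). Its longest run of C and T over the whole transcript was 10 bases, and 5.53% of tested genes had a shorter one (median 15). The motif TCTT, read on the transcript strand, occurred 8 times, or 4.04 times per kb beside a median of 5.08. CTCTCT did not occur, while 65.2% of tested genes held it at least once. The median transcript was longer, at 3478.5 bases, and a longer transcript has more room for runs and motifs. The part of length in these ranks was not tested. The TRIM28 transcript of 2960 bases held 6 TCTT, or 2.03 per kb, and 7.07% of tested genes had fewer per kb. The PEG10 transcript of 6618 bases held 37 TCTT, or 5.59 per kb, with a pyrimidine run of 24 bases and 5 CTCTCT, a number that 9.09% of tested genes reached. The GRB10 transcript of 5032 bases held 29 TCTT, or 5.76 per kb, and 3 CTCTCT. PEG10 and GRB10 had the same share of C and T, 50.1%. These counts describe mature transcripts, leave out introns and count overlapping matches, and a match is not a PTBP1 site.

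ZFP57, on chromosome 6 at 29672392-29681110 of the minus strand, was higher in every DCRT-KO library than in any WT library. Its values were 49.1, 45.3 and 37.9 FPKM in the WT libraries and 247, 218 and 156 FPKM in DCRT-KO replicates 1, 2 and 3. The groups did not overlap, and the lowest DCRT-KO value was 3.55 times the WT mean, the middle one 4.95 times and the highest 5.61 times. The group means were 44.1 ± 5.68 FPKM (SD, n = 3) in WT and 207 ± 46.5 FPKM (SD, n = 3) in DCRT-KO, a difference of 2.19 ± 0.20 (SE) on the log2(FPKM + 1) scale. No test is given for it because the gene was chosen on this contrast.

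**Figure D1:**
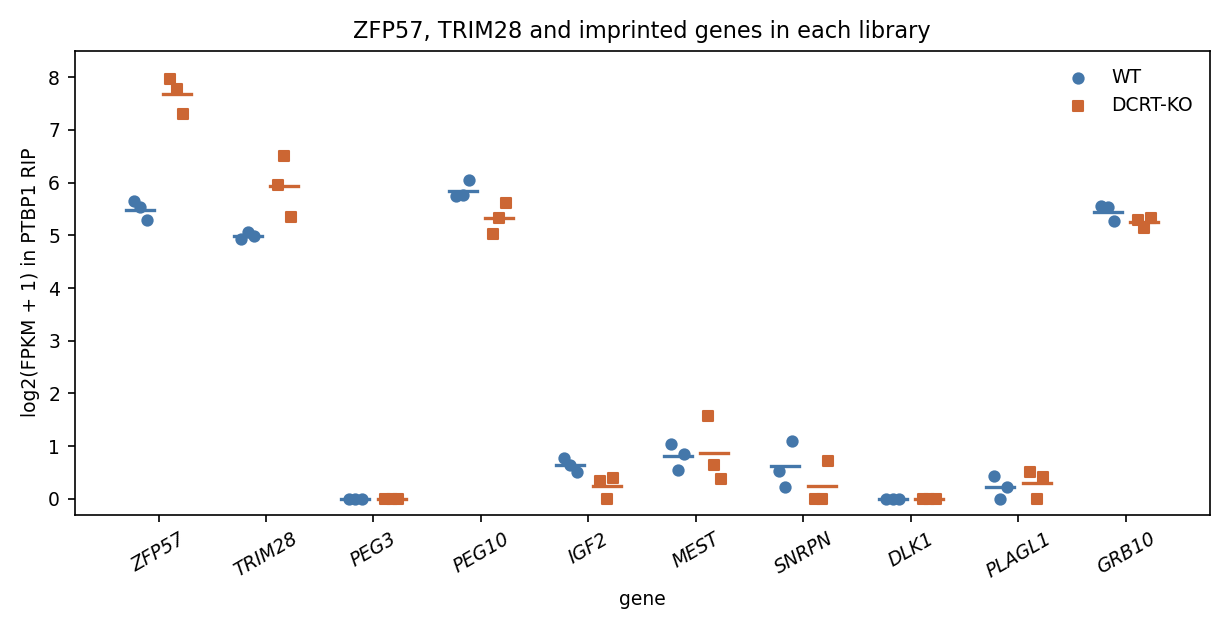
PTBP1 RIP level of each of the 10 genes in every library, as log2(FPKM + 1) on the y axis, with WT libraries as circles, DCRT-KO libraries as squares and group means as bars. ZFP57 values in DCRT-KO (156 to 247 FPKM) stand above those in WT (37.9 to 49.1 FPKM), while PEG3 and DLK1 lie at 0 in all 6 libraries.

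The ZFP57 values rested on at least 168 reads in every library. The WT libraries held 273, 175 and 168 ZFP57 reads and DCRT-KO replicates 1, 2 and 3 held 281, 175 and 464, so that shallower DCRT-KO libraries held as many ZFP57 reads as deeper WT libraries. Pooled over the libraries of a genotype, the RPM (reads scaled to the library total) were 4.22 times as high in DCRT-KO as in WT, with a 95% interval of 3.81 to 4.68 from the exact binomial split of the reads. Such intervals carry the error of counting alone and leave out the spread between libraries. Without molecular identifiers several reads can also stem from 1 RNA molecule, which would make the intervals too narrow. The interval is no test of ZFP57, which was chosen on this contrast. After every library was thinned at random to 373354 reads, the depth of the shallowest, the WT libraries kept 41, 34 and 23 ZFP57 reads and the DCRT-KO libraries 188, 175 and 110, and the groups again did not overlap.

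Among all RNAs in the RIP, ZFP57 stood closer to the top in DCRT-KO. In the WT libraries 531, 570 and 781 genes had a higher FPKM than ZFP57, and in DCRT-KO replicates 1, 2 and 3 the numbers were 75, 103 and 113. By size of the log2 difference it ranked 15 of 11445 tested genes, and it ranked 1 of the 609 genes at or above its WT mean. Because ZFP57 was chosen on this contrast, these ranks are tied to that choice and are only a description. The median log2 difference of all tested genes was -0.04, and 47.2% of them were higher in DCRT-KO. Under the 15 other settings, the ZFP57 difference ran from 1.81 to 2.38, and it was lowest with DCRT-KO replicates 1 and 2, the shallowest libraries, left out together.

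**Figure D2:**
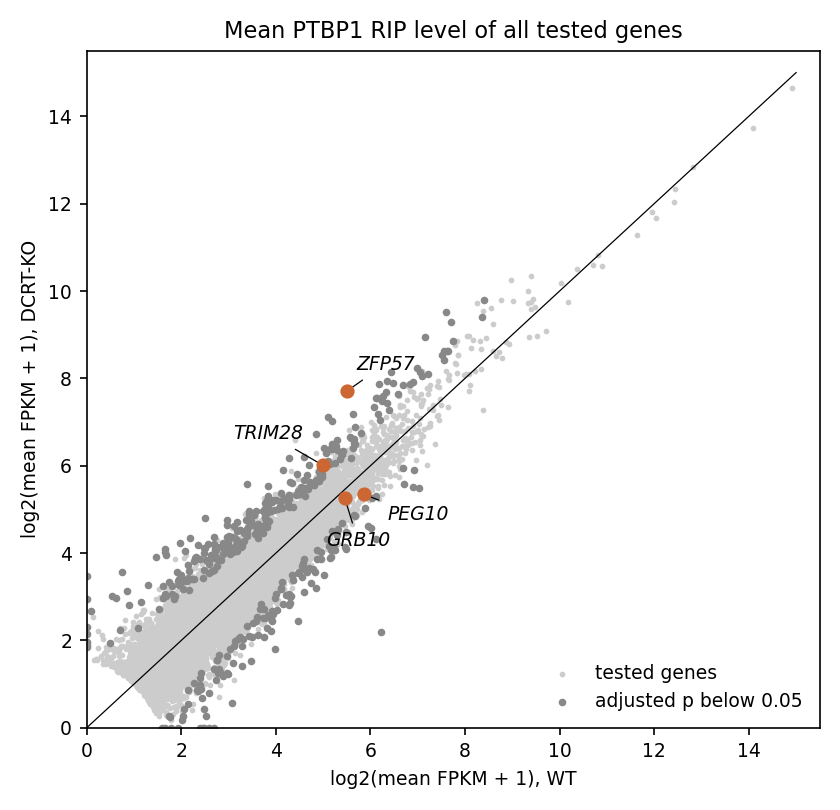
Mean PTBP1 RIP level of the 11445 tested genes in WT (x axis) and DCRT-KO (y axis), as log2(mean FPKM + 1), with the line of equal levels; darker points are genes with an adjusted p below 0.05 and coloured points are the 4 tested members. ZFP57 lies far above the line, at mean levels of 44.1 and 207 FPKM, while PEG10 and GRB10 lie below it.

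TRIM28, the corepressor that ZFP57 and most other KRAB zinc finger proteins recruit, was also higher in each DCRT-KO library than in any WT library, but its difference did not pass the test across all genes. The gene lies on chromosome 19 at 58544064-58550722 of the plus strand. Its values were 29.6, 32.4 and 30.7 FPKM in WT and 61.1, 89.6 and 39.7 FPKM in DCRT-KO replicates 1, 2 and 3. The WT libraries lay close together, and the DCRT-KO libraries spread widely, with the deepest of them, replicate 3, nearest to WT. The log2 difference was 0.94 ± 0.26 (SE, n = 3 per group), with an adjusted p of 0.0748 from limma over 11445 genes.

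The TRIM28 call depended on the setting. With voom, limma's weighting for counts, on the reads behind the FPKM, the adjusted p was 0.0147. Leaving out DCRT-KO replicate 3 raised the limma calls over all genes from 269 higher and 137 lower to 724 and 836. In that setting the TRIM28 log2 difference was 1.23 with an adjusted p of 0.00994 by limma. With DCRT-KO replicates 1 and 2 left out together it was 0.35 with an adjusted p of 0.286.

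The ratio of ZFP57 to TRIM28 was higher in every DCRT-KO library than in any WT library. Because ZFP57 was chosen for its difference between the genotypes, this ratio is tied to that choice and is only a description. In FPKM, ZFP57 stood at 1.66, 1.40 and 1.23 times TRIM28 in the WT libraries and at 4.05, 2.44 and 3.94 times in DCRT-KO replicates 1, 2 and 3. ZFP57 was highest in DCRT-KO replicate 1 and TRIM28 in replicate 2, while replicate 3 was the lowest of the group for both.

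PEG10, a paternally expressed gene derived from a retrotransposon and needed for the placenta in mice, was lower in DCRT-KO without passing the test. It lies on chromosome 7 at 94656325-94669695 of the plus strand. Its values were 52.3, 53.3 and 65.0 FPKM in WT and 31.7, 39.2 and 48.2 FPKM in DCRT-KO replicates 1, 2 and 3, and the groups did not overlap. The log2 difference was -0.52 ± 0.19 (SE, n = 3 per group), with an adjusted p of 0.141 from limma. Without DCRT-KO replicate 3, adjusted p was 0.0402 by the same limma test, at a log2 difference of -0.67. That setting called 724 genes higher and 836 lower among 11420. With replicates 1 and 2 left out the log2 difference was -0.23. PEG10 overlaps SGCE on the opposite strand.

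GRB10, an adaptor that damps signalling from the insulin and IGF receptors and is imprinted in a tissue-dependent way, had similar values in both genotypes. It lies on chromosome 7 at 50590063-50793462 of the minus strand. Its values were 46.1, 45.2 and 37.5 FPKM in WT and 38.3, 34.2 and 39.4 FPKM in DCRT-KO, and the groups overlapped. The log2 difference was -0.20 ± 0.16 (SE, n = 3 per group), with an adjusted p of 0.479 from limma. Across the 15 other settings it lay between -0.30 and -0.11.

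The WT levels of the 4 genes lay close to each other per length. In WT, PEG10 had the highest mean at 56.9 ± 7.07 FPKM (SD, n = 3), followed by ZFP57 at 44.1 ± 5.68, GRB10 at 42.9 ± 4.75 and TRIM28 at 30.9 ± 1.41 FPKM. The WT values of ZFP57 and GRB10 overlapped, and those of PEG10 lay above all others. In DCRT-KO, ZFP57 came first at 207 FPKM, and TRIM28 (63.5 ± 25.0 FPKM, SD, n = 3), PEG10 (39.7 ± 8.26) and GRB10 (37.3 ± 2.75) followed with ranges that overlapped between neighbours in that order.

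IGF2, MEST, SNRPN and PLAGL1 were near the limit of detection and were not tested. IGF2, the paternally expressed fetal growth factor, was covered by 13, 7 and 6 reads in the WT libraries and by 1, 0 and 3 reads in DCRT-KO. The WT levels were 0.719, 0.558 and 0.417 FPKM and the DCRT-KO levels 0.271, 0 and 0.311 FPKM, so the groups did not overlap. Its pooled RPM in DCRT-KO was 0.435 times that in WT, with a counting interval of 0.110 to 1.25 that includes equal levels. The second IGF2 identifier, which overlaps it on the same strand, had no read in any library, and INS-IGF2 overlaps both, so reads of this locus may be split between rows.

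MEST, a paternally expressed gene of the hydrolase fold, was covered by 13, 4 and 8 reads in the WT libraries and by 5, 1 and 2 reads in DCRT-KO, a pooled ratio of 0.904 (counting interval 0.353 to 2.07). SNRPN, which encodes a spliceosomal SmN protein in the Prader-Willi region, was covered by 4, 1 and 8 reads in the WT libraries and by 0, 0 and 3 reads in DCRT-KO, a ratio of 0.652 (0.119 to 2.37). PLAGL1, a zinc finger transcription factor of the transient neonatal diabetes locus, was covered by 8, 0 and 3 reads in the WT libraries and by 2, 0 and 4 reads in DCRT-KO, a ratio of 1.54 (0.468 to 4.55). The groups overlapped for all 3 genes, and at this depth no difference was detectable.

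PEG3, a zinc finger gene expressed from the paternal copy, and DLK1, a transmembrane protein related to Notch ligands, had no read in any of the 6 libraries. A count of 0 allows up to 3 reads, which corresponds to 0.465 RPM over the pooled WT libraries, 1.31 over the DCRT-KO libraries and 0.344 over all 8733134 reads. PEG3 overlaps ZIM2 on the same strand, and ZIM2 was at 0 as well.

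Across the whole table, limma called 269 genes higher in DCRT-KO and 137 lower at an adjusted p below 0.05, which is 3.55% of those tested (2.35% higher and 1.20% lower). After quantile normalization the split was 219 higher and 231 lower. Of the 4 tested members, 1 was called, ZFP57 itself, for which the contrast served as the choice. Over all tested genes, the groups did not overlap for 30.3%. The calls rested on all WT libraries: without WT library a, b or c, limma called 4, 8 and 0 genes in all.

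Other imprinted genes gave no call. A list of 56 further human imprinted genes had 54 in the table, of which 13 had no read in any library and 30 were tested. None of the 30 passed by limma. Unadjusted, 2 were higher and 7 lower at p below 0.05, beside 12.3% higher and 11.3% lower over all tested genes. By voom, PHLDA2 was called higher and GLIS3 and ZDBF2 lower, which is 3 of the 30 beside 9.17% of all tested genes. By direction alone 14 were higher and 16 lower in DCRT-KO, with a median log2 difference of -0.05 beside -0.04 for all tested genes. The groups did not overlap for 10 of the 30, of which 4 were higher and 6 lower in DCRT-KO, beside 15.5% and 14.8% of all tested genes.

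The listed imprinted genes with the highest mean levels were PHLDA2 and TFPI2. PHLDA2, a maternally expressed gene that restrains placental growth, had 75.6, 46.5 and 43.2 FPKM in WT and 123, 90.3 and 92.9 FPKM in DCRT-KO, which did not overlap. Its log2 difference of 0.91 ± 0.23 (SE) had an adjusted p of 0.0615 by limma. TFPI2, a serine protease inhibitor close to PEG10, had 63.4, 71.4 and 40.7 FPKM in WT and 27.1, 23.0 and 43.3 FPKM in DCRT-KO, which overlapped, with a log2 difference of -0.90 ± 0.27 (SE) and an adjusted p of 0.0928 by limma. Without DCRT-KO replicate 3 the TFPI2 difference was -1.16 with an adjusted p of 0.0236 by limma, and with replicates 1 and 2 left out it was -0.39. Without replicate 3, limma called 724 genes higher and 836 lower among 11420.

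**Figure D3:**
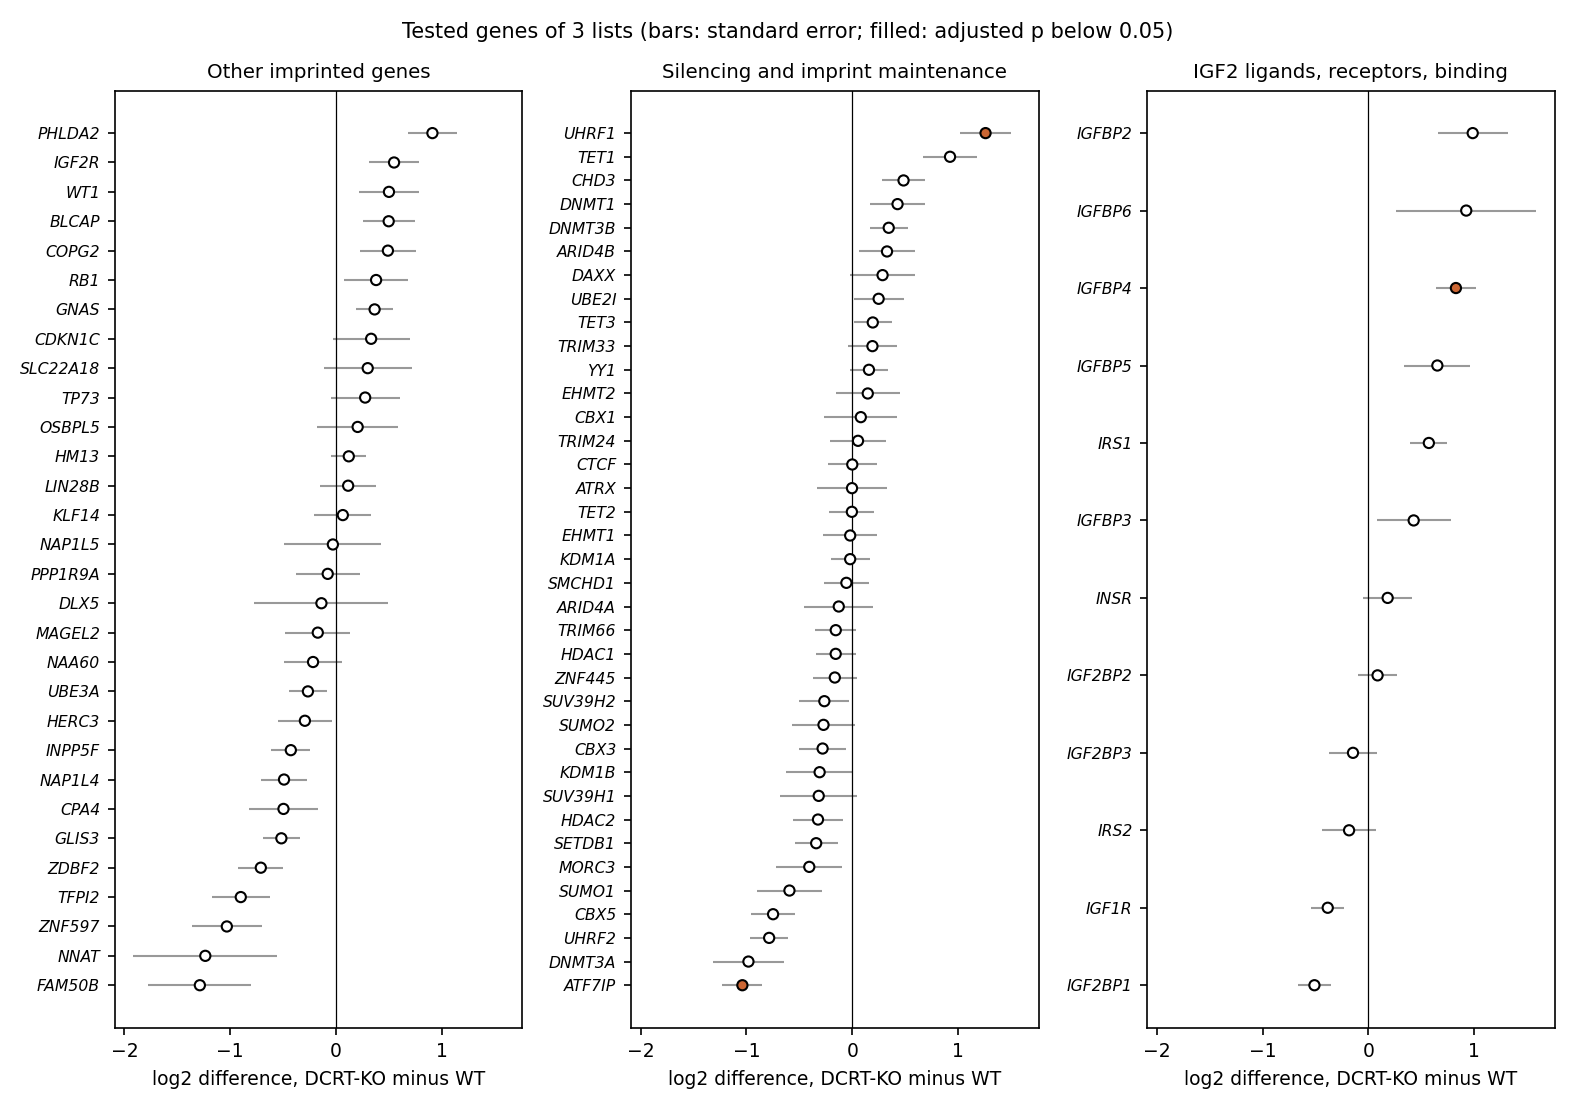
Log2 difference (DCRT-KO minus WT, x axis) of every tested gene in 3 lists, other imprinted genes, silencing and imprint maintenance, and IGF2 ligands, receptors and binding proteins, with bars of 1 SE and filled points for an adjusted p below 0.05. Filled points are UHRF1 and ATF7IP in the silencing list and IGFBP4 in the IGF2 list, and the imprinted list has none.

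The machinery around ZFP57 and TRIM28 held 1 call in each direction by limma. Of 44 genes of KRAB and TRIM28 silencing and imprint maintenance, 5 had no read in any library and 37 were tested. By limma UHRF1 rose and ATF7IP fell, which makes 5.41% of those tested beside 3.55% of all tested genes. By voom, UHRF1 and TET1 were called higher and ATF7IP, CBX5 and UHRF2 lower, 5 of the 37 beside 9.17% of all tested genes. UHRF2 had a limma adjusted p of 0.0502. Unadjusted, 3 were higher and 4 lower at p below 0.05, beside 12.3% and 11.3% over all tested genes. The groups did not overlap for 10 of the 37, 5 higher and 5 lower, beside 15.5% and 14.8% of all tested genes. The median log2 difference was -0.02, with 14 genes higher and 23 lower. SETDB1, the methyltransferase that TRIM28 recruits, averaged 11.2 FPKM over the WT and 8.71 FPKM over the DCRT-KO libraries (log2 difference -0.34, limma adjusted p 0.335), and ZNF445, which acts beside ZFP57 at imprints, averaged 9.08 and 8.03 FPKM (-0.17, limma adjusted p 0.664).

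UHRF1, which binds hemimethylated DNA and brings DNMT1 to it, had 14.9, 11.6 and 14.5 FPKM in WT and 30.2, 48.4 and 26.6 FPKM in DCRT-KO. The groups did not overlap, and the log2 difference was 1.26 ± 0.24 (SE) with an adjusted p of 0.0287 by limma. ATF7IP, a partner of SETDB1, had 12.4, 13.2 and 11.8 FPKM in WT and 5.88, 5.69 and 5.11 FPKM in DCRT-KO. Its log2 difference was -1.04 ± 0.19 (SE), with an adjusted p of 0.0269 by limma. Both calls were lost when any 1 WT library, DCRT-KO replicate 2, or replicates 1 and 2 together were left out and after thinning, with adjusted p up to 0.150 for UHRF1 and 0.157 for ATF7IP. The UHRF1 call was also lost with no filter or no variance trend, and both genes kept their direction in all 15 other settings.

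Genes that act with IGF2 included 1 call by limma. Of 16 ligands, receptors, binding proteins, mRNA-binding proteins and others such as IRS1, 12 were tested. IGFBP4 rose, which is 8.33% of those tested beside 3.55% of all genes. By voom, IGFBP2, IGFBP4 and IRS1 were called higher and IGF2BP1 lower, which is 4 of the 12 beside 9.17% of all tested genes. Unadjusted, 3 were higher and 2 lower at p below 0.05, beside 12.3% and 11.3% over all tested genes. The median log2 difference was 0.30, with 8 higher and 4 lower. IGFBP4, a secreted protein that holds IGFs, had 42.0, 28.2 and 40.9 FPKM in WT and 61.8, 61.9 and 73.2 FPKM in DCRT-KO, a log2 difference of 0.83 ± 0.19 (SE) with an adjusted p of 0.0490 by limma. The call was lost in 11 of 15 other settings, each time with DCRT-KO higher.

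IGF1R, the receptor that carries the IGF2 signal, and IGF2BP1, which binds the IGF2 mRNA, had the highest means of the list and did not pass by limma. The IGF1R mean was 77.8 ± 5.58 FPKM (SD, n = 3) for WT and 59.5 ± 7.60 FPKM for DCRT-KO, with a log2 difference of -0.38 ± 0.16 (SE) and an adjusted p of 0.180 by limma. The IGF2BP1 mean was 78.0 ± 2.76 FPKM for WT and 54.8 ± 7.32 FPKM for DCRT-KO, with a log2 difference of -0.51 ± 0.16 (SE) and an adjusted p of 0.0964 by limma. For IGF2BP1 the adjusted p was 0.0401 with voom and 0.0414 by limma without DCRT-KO replicate 3. Without that library limma called 724 genes higher and 836 lower among 11420. The groups did not overlap for either gene.

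The tested genes nearest to ZFP57 did not show a difference of its size. Their centres lay from -1287 kb to 522 kb of that of ZFP57, negative towards lower coordinates. The 5 nearest tested genes on each side had log2 differences of -0.22 to 0.90 with a median of 0.31, 6 higher and 4 lower in DCRT-KO, and none was called by limma (unadjusted, 2 were at p below 0.05, and voom called 1). MOG, the nearest on 1 side, differed by 0.52 ± 0.31 (SE), and HLA-F, the nearest on the other, by 0.64 ± 0.50 (SE). No other annotated gene overlaps ZFP57 in GENCODE 29.

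The neighbours of the other members were counted in the same way, and over all tested genes 23.6% were at an unadjusted p below 0.05. TRIM28 lies near the end of its chromosome and had 8 such neighbours, 5 higher and 3 lower, with a median of 0.23 and no call by limma or voom (unadjusted, 0 at p below 0.05). The 10 around PEG10 were 3 higher and 7 lower with a median of -0.29. BET1, GNG11 and CASD1 on 1 side, at -679, -738 and -130 kb between centres, differed by -1.23, -1.11 and -1.07. Their levels were low, with means of 3.40, 1.75 and 2.51 FPKM in WT and 0.917, 0.286 and 0.689 FPKM in DCRT-KO. None of the 10 was called by limma or voom (unadjusted, 5 at p below 0.05). The 10 around GRB10 had a median of 0.13 and 1 call, TNS3, a focal adhesion protein (log2 difference 0.97 ± 0.15 SE, limma adjusted p 0.0196). Its centre lies at -3263 kb from that of GRB10. These neighbours ran from -4775 to 4813 kb, and those of SNRPN reached 4444 kb, so nearest tested genes can be far away. Of the 10 around GRB10, 2 were at an unadjusted p below 0.05 and voom called 2. Those around IGF2 had a median of 0.47, with 9 higher and 1 lower and 1 call, MRPL23, a mitochondrial ribosomal protein (1.31 ± 0.23 SE, limma adjusted p 0.0269). Of these 10, 5 were at an unadjusted p below 0.05 and voom called 2. Neighbours of MEST were 6 higher and 4 lower, those of SNRPN 5 and 5 and those of PLAGL1 3 and 7, with no call by limma. Unadjusted, 1, 1 and 2 of them were at p below 0.05, and voom called 1, 0 and 1. Over all tested genes 47.2% were higher in DCRT-KO. Some neighbours were also counted among the other imprinted genes, so these counts overlap. Among them were PHLDA2, CDKN1C and SLC22A18 near IGF2, and TFPI2 and PPP1R9A near PEG10.

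**Figure D4:**
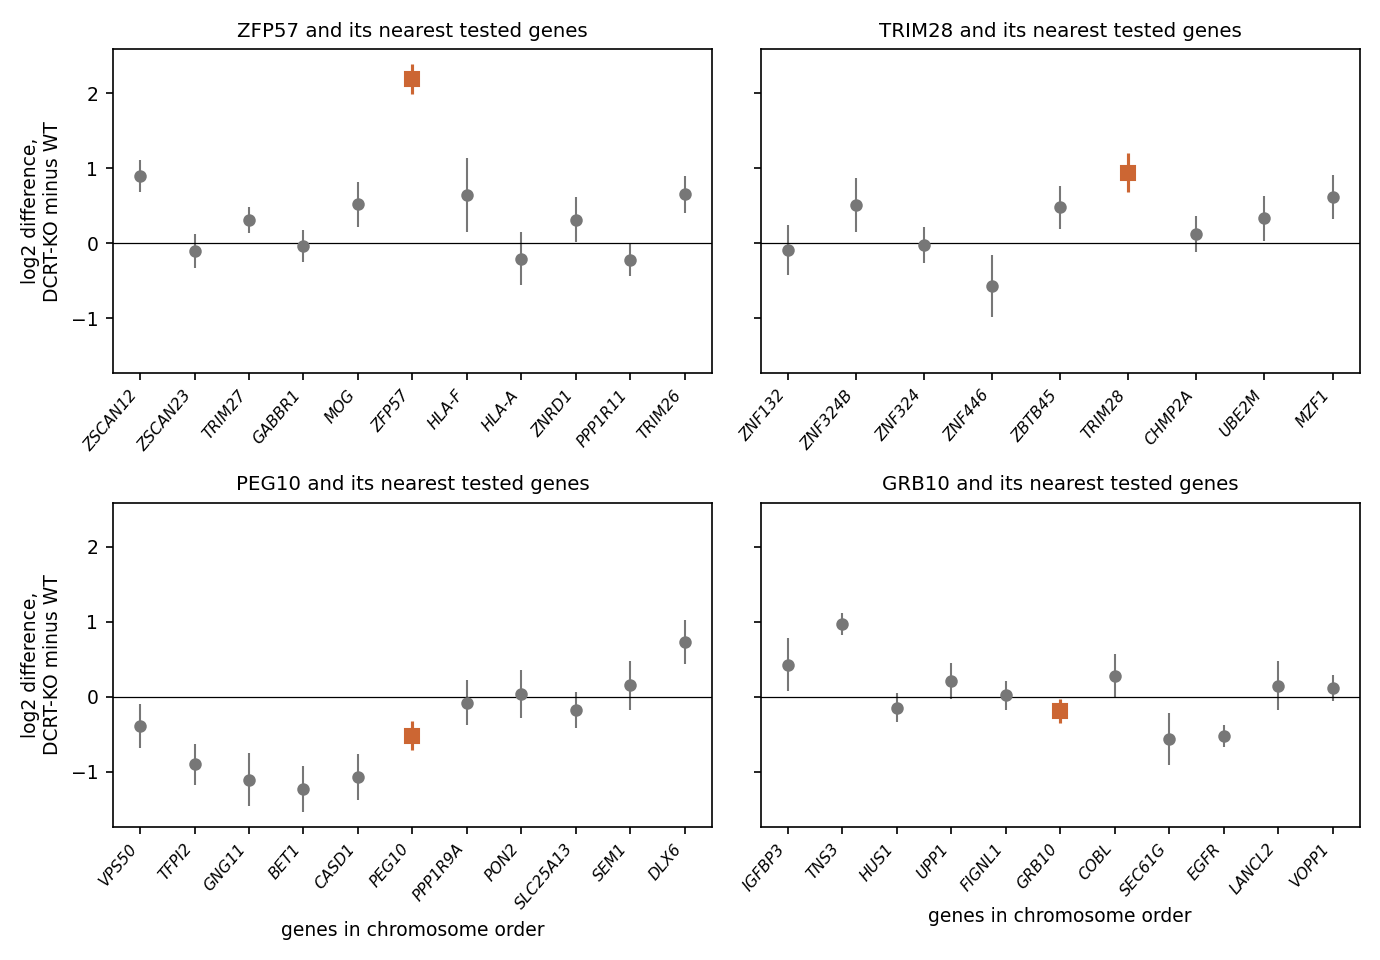
Log2 difference (DCRT-KO minus WT, y axis, bars of 1 SE) of ZFP57, TRIM28, PEG10 and GRB10 (squares) and of up to 5 nearest tested genes on each side (circles), in chromosome order and not to distance. ZFP57 stands at 2.19 among neighbours between -0.22 and 0.90, and the neighbours on 1 side of PEG10 lie below 0.

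Across the 6 libraries, the genes whose log2 levels followed ZFP57 most closely were IDH2, NTSR1, NRCAM, MVD and CCT3, with Pearson r of 0.998, 0.996, 0.996, 0.995 and 0.995 among the 10004 tested genes whose mean reached 2 FPKM. The points share their libraries, groups and depth, and 585 of the genes (5.85%) had r above 0.9, so these values are a description. IDH2, a mitochondrial isocitrate dehydrogenase, had 6.18, 5.53 and 4.65 FPKM in WT and 23.5, 20.9 and 14.4 FPKM in DCRT-KO. NTSR1, the neurotensin receptor, had 18.6, 19.7 and 16.8 FPKM in WT and 77.7, 77.1 and 60.0 FPKM in DCRT-KO. In both, as in ZFP57, DCRT-KO replicate 3 had the lowest value of its group, a likeness that the choice by r favours.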

How the data were processed

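PTBP1 RIP libraries of 3 DCRT-KO and 3 WT AC16 samples were analysed. The authors deposited FPKM per gene. Per the labels' protocols the libraries were strand-specific and paired-end, and cutadapt 1.2.1 is named in the submitters' processing notes. Aligner, counter and build: not given in the sources used here. Of the 11 rows of the members, 10 had the start and end of GENCODE 29 (GRCh38). Each FPKM multiplied by its gene length was a whole number of steps of 1 size per library (100% of values, tolerance 1e-06), and the number of steps was taken as the reads.

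A gene was tested if its mean reached 1 FPKM. Tests used log2(FPKM + 1), a scale that understates changes of low genes, and limma 3.58.1 (trend, two-sided, Benjamini-Hochberg over 11445 genes, threshold 0.05). On 10 simulated sets of 11445 genes with 200 changed, 42.0% of 2-fold and 89.0% of 4-fold changes were recovered. A mean of 4.7 calls among 130.4 were false. The sets held negative binomial reads with the same dispersion of 0.0125 in all libraries. The spread of each group was not modelled, so these rates may not hold for these data. Of the WT columns (libraries a, b, c), a and b carry the same replicate number, so all 3 are known by group only. Replicates differed beyond sampling noise, with a chi-square of 2.82 to 5.88 per degree of freedom between pairs. Alternatives were other pseudocounts, filters, scalings, voom, thinning and leaving out libraries.

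The members and lists were chosen with earlier results of these data known. Named genes were the members, up to 6 called genes of each list (the 2 with the highest mean where fewer than 2 were called), the nearest neighbour of ZFP57 on each side and the 5 genes most like it. SETDB1, ZNF445, the voom calls, NPPA, NPPB, TTN, the called neighbours and those beside PEG10 were added after their values were seen.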

Additional observations from a re-analysis of the deposited data

How the results depend on the processing

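No direction of the 10 named genes other than ZFP57 reversed in 150 comparisons with other settings, of which 116 kept their side of the threshold, 25 lost a call and 9 gained one. The ZFP57 difference, given without a test, kept its direction in its 15 settings and fell to 1.81 with both shallowest libraries left out, an alternative chosen after seeing the data. The counts moved more. Higher and lower calls were 72 and 50 with no filter, 70 and 64 with no variance trend, 659 and 390 with voom, 85 and 42 after thinning, and 31 and 13 with both shallowest libraries left out; lower calls were 90 with a pseudocount of 0.1 and 231 after quantile normalization. Leaving out 1 library gave 0 to 724 higher and 0 to 836 lower calls, both highest without DCRT-KO replicate 3 and both 0 without WT library c.

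Calls among other imprinted genes were 1 with a filter of 5 FPKM, 3 with voom and 0 to 5 with 1 library left out. Over all genes, the filter of 5 FPKM gave 384 higher and 179 lower calls among 7099 tested. Leaving out DCRT-KO replicate 3 gave 724 and 836 among 11420. In each list and among the members, the highest count with 1 library left out came from that setting. Silencing genes gave 1 call with no filter or no variance trend, 4 after quantile normalization, 5 with voom, 0 after thinning or without both shallowest libraries, and 0 to 5 with 1 library left out. The IGF2 list gave 0 calls with a pseudocount of 0.1, no filter, quantile normalization, no variance trend, thinning or both shallowest libraries left out, 4 with voom, and 0 to 2 with 1 library left out. Members called were 2 with voom and 0 to 3 with 1 library left out, with 0 without WT library c, where ZFP57 was not past the threshold either. The member counts include ZFP57, which was chosen on this contrast, so they are no test of it. The cause was not tested, beyond fewer samples or genes where a setting leaves them out.

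No paired analysis was possible because the WT columns use number 1 for both a and b and have no number 3, so they cannot be matched to DCRT-KO replicates. The planned negative binomial tests on recovered reads were not run, since the deposited unit is FPKM, although voom was run on those reads. Depth limits IGF2, MEST, SNRPN and PLAGL1, which had at most 13 reads in a library.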
